A study of Mus musculus with 4 samples.

Results

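The genes described here encode the proteins of the cytosolic ribosome. They were taken by symbol: Rpl or Rps, digits and at most 1 lower-case letter, plus Rplp0, Rplp1, Rplp2 and Rpsa. Of 32285 genes in the files 80 met the rule, 49 named for the large subunit and 31 for the small subunit, and all 80 were kept. In 79 of them at least 1 unique molecular identifier (UMI, the mark of 1 captured RNA molecule) was counted. Rpl10l had 0 UMIs in called cells of all 4 libraries. The paralogs that met the rule were Rpl3l, Rpl10l, Rpl39l and Rps27l, whereas 8 ribosomal protein genes did not because of their spelling, Rps3a1, Rpl36al, Rpl22l1, Rpl7l1, Rps27rt, Fau and Rack1 among them.

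The study used 10x single-cell RNA-Seq to ask which cell types act on bone turnover under excess glucocorticoid (GC). Its 4 libraries were made from 20-week-old male C57BL/6J mice, 1 each from fracture callus and trabecular bone of mice given placebo (control) and 1 each from mice given prednisolone at 6.25 mg/kg/d (GC), collected at week 2. The labels describe a subcutaneous slow-release pellet for all 4 libraries, whereas the paper describes daily injection for the fracture model. Marrow was flushed, the remaining bone was crushed and digested, and the fractions were pooled, with the number of mice behind a library not given. With 1 library per group there was no test between conditions or tissues, and all intervals below are exact 95% intervals for counting error only.

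A ribosome carries a single copy of most of its proteins, and cells make them in matched amounts. Their mRNAs are among the most abundant of any growing cell and begin with a terminal oligopyrimidine (TOP) tract, a C followed by a run of pyrimidines, through which translation of the whole family responds to nutrients and mTORC1. Several proteins also have roles off the ribosome: Rpl5 and Rpl11 bind 5S rRNA and restrain Mdm2, and mutations in a group of these genes cause Diamond-Blackfan anemia, in which red cell precursors fail. Neutrophils and red cells shut down ribosome production as they mature, whereas dividing progenitors keep it.

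The sequences around the transcription start set out how the members resemble each other. RefSeq promoter sequences on GRCm38.p6 were matched for 60 of the 80 members. Within 25 bases either side of the start, 36 of these 60 held a run of at least 8 pyrimidines (C or T on the strand of the gene), against 27.05% of 27025 genes. A C followed by 5 pyrimidines lay within 5 bases of the start in 25 members (41.67%), against 11.95% of all genes, and the median longest run was 9 bases in members and 6 in all genes. Windows of 30 bases, written 5′ to 3′ with the longest run in capitals, are printed for members that differed most between the callus libraries (Rps15, Rpl12, Rpl13a and Rps12 lower in GC; Rps28, Rps27, Rpl35 and Rpl38 higher) and for 3 more that were among the 5 with the widest spread over cell classes in at least 1 tissue (Rps9, Rps27l and Rpl39l).
Rps15 (chr10:80292402-80292431, plus strand): tggaggcgggCCCTCCCggcagagctcgcg
Rpl12 (chr2:32961703-32961732, plus strand): gcaggatccgTCTTTTCggctttcggctcg
Rpl13a (chr7:45128724-45128753, minus strand): tgcgacaagaCCTCCTCCTTTCCCaggcgg
Rps12 (chr10:23787182-23787211, minus strand): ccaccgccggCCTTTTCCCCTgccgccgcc
Rps28 (chr17:33824564-33824593, minus strand): gtcccgaggaTTCCTgggtaccgcgtgcgg
Rps27 (chr3:90213631-90213660, minus strand): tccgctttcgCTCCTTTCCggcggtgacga
Rpl35 (chr2:39005119-39005148, minus strand): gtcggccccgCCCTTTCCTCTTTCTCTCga
Rpl38 (chr11:114668568-114668597, plus strand): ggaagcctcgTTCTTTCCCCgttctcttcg
Rps9 (chr7:3704025-3704054, plus strand): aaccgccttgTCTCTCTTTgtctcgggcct
Rps27l (chr9:66946054-66946083, plus strand): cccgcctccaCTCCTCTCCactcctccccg
Rpl39l (chr16:10170192-10170221, plus strand): acacccactgCCTCTCCCTagctcccaggc
The runs spanned 18 bases in Rpl35, 14 in Rpl13a, 11 in Rps12, 10 in Rpl38, 9 each in Rps27, Rps9, Rps27l and Rpl39l, 7 each in Rps15 and Rpl12 and 5 in Rps28. Both long and short runs therefore stood among the members higher in GC callus, and likewise among those lower. Members with no matched entry included Rpl17, Rpl21, Rpl23a, Rpl29, Rpl3, Rpl30, Rpl32, Rpl36, Rpl7, Rpl8, Rplp1, Rps14, Rps20, Rps27a and Rps29. A match of letters is a description of the annotated start, not of the start used in these cells.

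From callus, 95852254 UMIs were counted in control and 64388215 in GC, and from trabecular bone 41239842 and 45876714. These totals cover every listed barcode, called or not, so the callus totals are over unlike sets of barcodes. Kept were 6710 and 6890 cells of callus and 3820 and 4603 of trabecular bone, which shared 6 to 10 barcodes between any 2 libraries. The GC callus matrix listed only called barcodes, and its header names the counting software in another form than the other headers, so for callus the treatment and the making of the file cannot be told apart. It also held 1197 cells of an unnamed cluster (17.4% of its cells, against 80 cells or 1.19% in control callus). The members took 8.77% (control) and 7.51% (GC) of the UMIs of that cluster. Cell classes were named from marker genes in clusters made without the members. Callus held chondrocytes, hypertrophic chondrocytes, osteoblasts or osteocytes and osteoclasts by these markers, and trabecular bone was mostly hematopoietic, with 18 (control) and 46 (GC) skeletal stromal cells.

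Ribosomal protein mRNA made up a large part of all RNA captured. Over all cells of a library the 80 members took 16.6% of UMIs in control callus (95% interval 16.58 to 16.6) and 16.4% in GC callus (16.35 to 16.37). In trabecular bone they took 12.6% in control (12.56 to 12.59) and 13.25% in GC (13.24 to 13.27). In barcodes that were not called cells, which hold mostly free RNA, the share was 13.5% for control callus, and 10.5% (control) and 12.5% (GC) for trabecular bone. The share is a fraction of captured RNA and not an amount per cell, and it moves with everything else a cell makes. The 49 large subunit genes together took more than the 31 small subunit genes in each library. The small subunit genes took 44.2% (control) and 44.1% (GC) of member UMIs in callus, and 45.7% and 46.1% in trabecular bone. These are sums over unlike numbers of genes and not levels per gene.

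Rpl41, the shortest member with 25 codons, had the most UMIs, 1073133 over the 4 libraries or 3.42% of all member UMIs. It was followed by Rps24, Rps29, Rplp1 and Rpl37a, with 738058, 734386, 733850 and 729911 UMIs. At the other end stood the 4 paralogs and Rpl4, a large subunit protein of the exit tunnel with 96480 UMIs. These are counts of molecules and not levels per length. The genes lay on 19 chromosomes, at most 14 on 1, so no single locus held the family. Near-identical copies listed in the files had few counts: Rpl36a-ps1 stood at 18.7 CPM (UMIs of a gene scaled to a common total of UMIs, the unit of all levels below) in control callus and Rpl10-ps3 at 19.7. Values of Rpl36a, Rpl10 and Rpl9 are still uncertain to the extent that reads were split between copies.

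The paralogs had cell-type patterns of their own. Rpl39l, an Rpl39 paralog known from testis, stood at 72.0 CPM in control callus and 50.8 in GC callus but at 2.00 and 1.70 in trabecular bone. Its highest values lay in skeletal cells: 122 CPM (control) and 78.0 CPM (GC) in hypertrophic chondrocytes, 82.8 and 60.6 in osteoblasts or osteocytes, 75.8 and 51.7 in chondrocytes and 59.0 and 41.6 in callus stromal cells. The few stromal cells of trabecular bone had the highest level there, 53.7 (control) and 42.2 (GC) CPM from 7 and 12 UMIs, although more of its UMIs in that tissue were counted in the far more numerous immature neutrophils (18 and 14). In callus osteoclasts, which are hematopoietic, it stood at 4.99 and 3.94 CPM, and in callus granulocyte-monocyte progenitors at 5.46 (control) and 50.8 (GC) CPM. Of the 70 GC cells of that progenitor class, 45 lay in a cluster with 1 control cell. The leading genes of that cluster held Ibsp, Col1a1, Bmp2 and Cxcl12 beside Elane, Mpo and Prtn3, so its cells were mixed. Their part in the GC value was not tested. Rpl3l, an Rpl3 paralog of heart and skeletal muscle, was counted 567 times in all, mostly in neutrophils. It stood at 20.8 CPM (control) and 19.6 CPM (GC) in callus mature neutrophils and at 16.1 and 15.2 in trabecular ones (128 and 117 UMIs), against 0.96 and 0.91 over all callus cells. Rps27l, a p53 target and paralog of Rps27, was highest in callus osteoclasts (787 CPM in control, 1034 in GC) and lowest there in immature neutrophils (45.5 and 53.0). Over both callus libraries conventional dendritic cells (854 CPM) stood close to osteoclasts (905), followed by C1q macrophages (600). In trabecular bone Rps27l was highest in granulocyte-monocyte progenitors (765 and 842 CPM) and early erythroid progenitors (738 and 807).

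The share of UMIs taken by the members spanned a wider range over cell classes than between treatments, where the largest fold within a class of at least 15 cells in each library was 1.66 (trabecular mature neutrophils). In callus, 18 classes had at least 15 cells in each library. With both libraries summed, the order ran from T cells (32.6%), B cells (25.6%), granulocyte-monocyte progenitors (25.4%), NK or innate lymphoid cells (24.9%) and conventional dendritic cells (22.7%), through osteoclasts (21.5%), plasma cells (20.5%), plasmacytoid dendritic cells (19.9%), hypertrophic chondrocytes (19.0%), monocytes (17.7%) and chondrocytes (15.7%), to C1q macrophages (15.3%), stromal cells (15.3%), endothelial cells (14.97%), osteoblasts or osteocytes (14.04%), erythroblasts (9.37%), immature neutrophils (4.26%) and mature neutrophils (4.20%). T cells were 7.76-fold above mature neutrophils. The neighbors whose intervals overlapped were C1q macrophages with stromal cells and immature with mature neutrophils. These intervals hold counting error only and leave out the difference between animals. Callus erythroblasts were mixed, since the median cell had 2.33% (control) and 2.26% (GC) while the sums gave 8.30% and 10.7%.

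In trabecular bone 12 classes were compared. T cells again came first (36.4%), followed by hematopoietic progenitors (30.7%), megakaryocytes or platelets (29.2%), granulocyte-monocyte progenitors (28.2%), early erythroid progenitors (26.2%) and B cells (24.8%). Mast cells or basophils (21.6%) and monocytes (21.5%) had overlapping intervals. Stromal cells (12.8%), immature neutrophils (4.77%), mature neutrophils (3.13%) and erythroblasts (1.07%) came last. The first and the last differed 34.1-fold. When hemoglobin and mitochondrial UMIs were left out of the total, the highest and the lowest class differed 12.01-fold. The lowest class need not be erythroblasts there, since that total leaves out most of their UMIs. Hemoglobin took 81.3% (control) and 79.7% (GC) of the UMIs of these erythroblasts. Along both lineages with an early and a late stage, the share was high in progenitors and low in the late cells. From granulocyte-monocyte progenitors through immature to mature neutrophils it stood at 27.9%, 4.64% and 2.37% in control and 28.4%, 4.88% and 3.92% in GC. From early erythroid progenitors to erythroblasts it stood at 25.6% and 0.88% in control and 27.1% and 1.15% in GC. The neutrophil and erythroblast shares lay under those of the uncalled barcodes, and the part of free RNA in them was not tested.

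**Figure D1:**
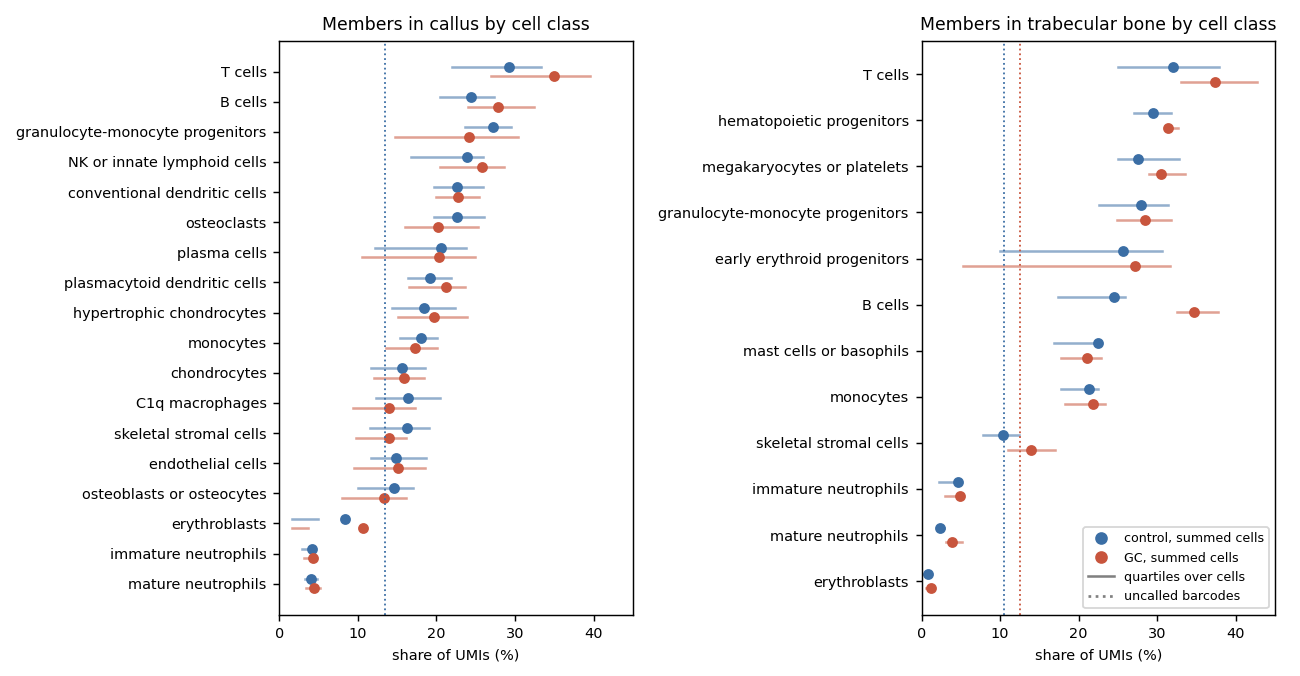
Share of UMIs taken by the ribosomal protein genes (percent, horizontal axis) in each cell class, with points for the summed cells of the control and GC libraries, lines for the quartiles over cells and dotted lines for uncalled barcodes (not listed for GC callus). T cells stand highest in both tissues (32.6% and 36.4% over both libraries), and mature neutrophils of callus (4.20%) and erythroblasts of trabecular bone (1.07%) lowest.

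The members differed in composition as well as in total along the neutrophil lineage. Rps9, a small subunit protein at the mRNA entry, took 8.02% (control) and 6.57% (GC) of all member UMIs in trabecular mature neutrophils, against 1.14% and 1.21% in granulocyte-monocyte progenitors, with immature neutrophils between them (3.43% and 3.93%). Rps27, a zinc-finger protein of the small subunit, took 4.63% and 4.04% in trabecular mature neutrophils and 0.88% and 0.76% in the progenitors. In callus mature neutrophils Rps27 took 5.27% and 7.28%, and Rps9 3.91% and 3.68%. Rps27a, which is made as a fusion with ubiquitin, took 5.47% and 4.97% in trabecular mature neutrophils and 2.39% and 2.34% in the progenitors. Rpl3, near the peptidyl transferase center, went the other way, with 0.21% in both libraries of trabecular mature neutrophils and 1.06% and 1.14% in the progenitors. Each of these trabecular orders held in both libraries of that tissue. In callus, immature and mature neutrophils had close member shares (4.26% and 4.20% over both libraries). There Rps27a was lower in the mature cells (1011 CPM) than in the immature cells (1749 CPM), and so was Rps9 (1599 and 1969 CPM). Rps27 was higher in the mature cells (2562 and 1445 CPM).

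Across classes, the level of a member relative to the median member of the same class spread by a median of 1.06 on the log2 scale in each tissue. The widest spreads in callus belonged to Rpl3l, Rpl39l, Rps27l, Rpl10l and Rps27, and in trabecular bone to Rpl3l, Rpl10l, Rpl39l, Rps9 and Rps27. For Rpl10l the value comes from the pseudocount alone, since the gene had no UMI, and for Rpl3l and Rpl39l it does so in classes where they were at or near 0. Rps27 reached 2.67 above the median member in callus mature neutrophils (2562 CPM) and stood at -0.05 in chondrocytes (1839 CPM). The CPM of Rps27 was thus close in these 2 classes, while most other members had far lower CPM in neutrophils. CPM is a fraction of captured RNA and not an amount per cell. A further gene with a pattern of its own, chosen after its values were seen, was Rpl31, at 2723 CPM (control) and 2176 CPM (GC) in plasmacytoid dendritic cells of callus, against 864 and 742 in conventional dendritic cells.

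**Figure D2:**
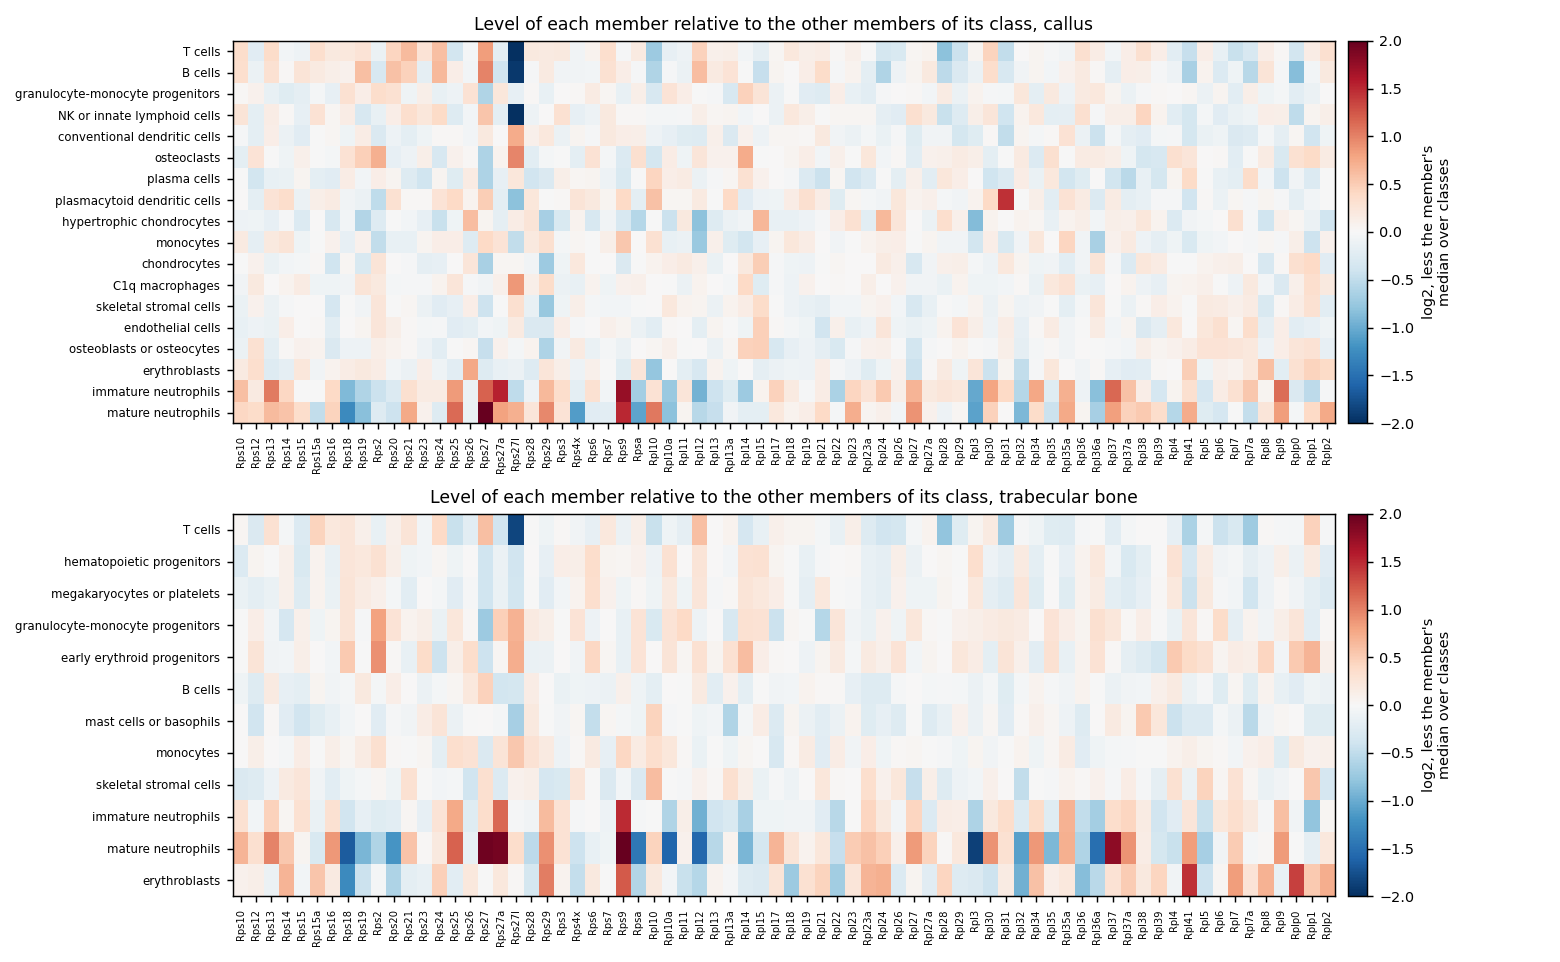
Heat map of the log2 level of each ribosomal protein gene (columns, without Rpl3l, Rpl10l, Rpl39l and genes not reported here) less the median member of the same class (rows) and less its own median over classes, both libraries summed, with colors limited at 2 either way. Rps27 and Rps9 stand out as relatively high, and Rpl3 as relatively low, in mature neutrophils of both tissues. In callus, immature neutrophils had similar levels of Rps9 (1969 CPM, against 1599 in mature cells) and Rpl3 (140.8 and 129.6).

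Between GC and control, the members of callus as a whole took nearly the same share (16.6% and 16.4%), whereas single members moved far apart. A ratio is the log2 of the GC level plus 5 CPM over the control level plus 5 CPM, for genes with at least 50 UMIs over both libraries, and a member is called past 1.5-fold on that scale with no test behind it. The median ratio of the 79 members tested was -0.12, with 27 above and 52 below 0, beside a median of 0.03 over 15105 genes. Without the unnamed cluster the shares were 16.6% (control) and 17.1% (GC) and the median -0.04. Past 1.5-fold stood 6 members higher in GC (1.64% of all genes tested) and 13 lower (1.56% of all genes). In trabecular bone the median was 0.09, with 61 members above and 18 below 0, beside -0.03 over 12144 genes. No member there was past 1.5-fold in either direction (1.49% of all genes were higher and 1.83% lower).

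The class medians of callus lay on both sides of 0, and 12 of 18 were below it. A median below 0 was not always a lower summed share. In chondrocytes, endothelial cells (14.87% and 15.08%) and both neutrophil classes the median was below 0 and the summed share higher in GC. In conventional dendritic cells the share was 22.67% and 22.73%, with a median of -0.10. All 18 comparisons use the same pair of libraries and are not independent of each other. C1q macrophages went from 16.4% (control) to 13.9% (GC) with a median of -0.43, stromal cells from 16.3% to 13.9% with -0.35 and osteoclasts from 22.6% to 20.2% with -0.32. Granulocyte-monocyte progenitors had a median of -0.27, but their cells were spread over clusters with an overlap of only 38.2% between the libraries, and the sign turned at a finer clustering. In the 2 clusters with several cells of each library the GC share was the higher (26.9% and 34.3% with 31 and 18 cells, 27.6% and 31.45% with 9 and 7 cells), and another cluster held 45 GC cells at 15.3% and 1 control cell at 27.2%. Osteoblasts or osteocytes had -0.23 and monocytes -0.19. At the other end T cells went from 29.2% to 35.0% with a median of 0.15 and B cells from 24.4% to 27.9% with 0.10. Chondrocytes (15.7% and 15.9%, -0.06), hypertrophic chondrocytes (18.4% and 19.7%, 0.03) and mature neutrophils (4.07% and 4.38%, -0.04) had medians near 0. The clusters of chondrocytes went opposite ways. In 1 the share was 13.9% in 795 control and 15.4% in 645 GC cells, and in another 17.4% in 860 and 16.7% in 345. The neutrophil clusters differed between the libraries: 1 held 585 control and 1140 GC cells and another 979 and 56.

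Within C1q macrophages, 4 members were past 1.5-fold higher in GC (11.2% of 3554 genes) and 20 lower (7.77%). Rpl12 (1892 CPM in control, 684 in GC) and Rps15 (1772 and 690) stood lowest, and Rps29 (4595 and 7430), Rpl41 (4437 and 6855) and Rpl35 (1472 and 2230) highest. In stromal cells 1 member was higher (3.02% of 9058 genes) and 17 lower (4.38%). The extremes were Rpl12 (1863 and 825 CPM), Rps15 (1575 and 722) and Rpl17 (2382 and 1188) on the low side, and Rpl35 (1306 and 2071), Rpl38 (2000 and 2996) and Rps28 (2344 and 3387) on the high side. In osteoclasts 3 were higher (5.05% of 7005 genes) and 12 lower (5.27%), led by Rpl12 (2931 and 1298 CPM) and Rps15 (2349 and 1054) among the lower and Rpl41 (6164 and 11387), Rps28 (2669 and 4522) and Rps29 (4693 and 7695) among the higher. Rpl12 and Rps15 were among the 3 lowest in each of these 3 classes. The GC share was lower in every bin of UMIs per cell that could be compared in these 3 classes: 2 bins in macrophages, 3 in stromal cells and 2 in osteoclasts.

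Among the compared classes T cells had the highest share in each library, and their share was higher in GC in both tissues. In callus their share was 29.2% (287 cells) in control and 35.0% (389 cells) in GC, and in trabecular bone 32.0% (48 cells) and 37.4% (165 cells). In callus T cells 13 members were past 1.5-fold higher (3.73% of 4805 genes) and 4 lower (13.6%), with Rpl35 (1909 and 4027 CPM), Rps29 (6497 and 13285) and Rps28 (4317 and 8704) highest and Rps15 (3074 and 1580), Rpl12 (4904 and 2742) and Rps14 (5810 and 3653) lowest. In trabecular T cells the median was 0.25, with 3 members higher (12.1% of 3672 genes) and 0 lower (13.2%). There the highest were Rps2 (3829 and 6126 CPM), Rplp0 (4374 and 6960) and Rpl28 (2443 and 3857), and the lowest Rpl38 (5723 and 4707), Rps27 (9445 and 7795) and Rpl36 (3762 and 3371). No gene stood at the same end in the T cells of both tissues. GC T cells also had more UMIs per cell, with medians of 2703 and 3027 in callus and 6010 and 6632 in trabecular bone, and the GC share was higher in 3 of 3 bins of UMIs per cell in callus and in the 1 bin of trabecular bone.

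**Figure D3:**
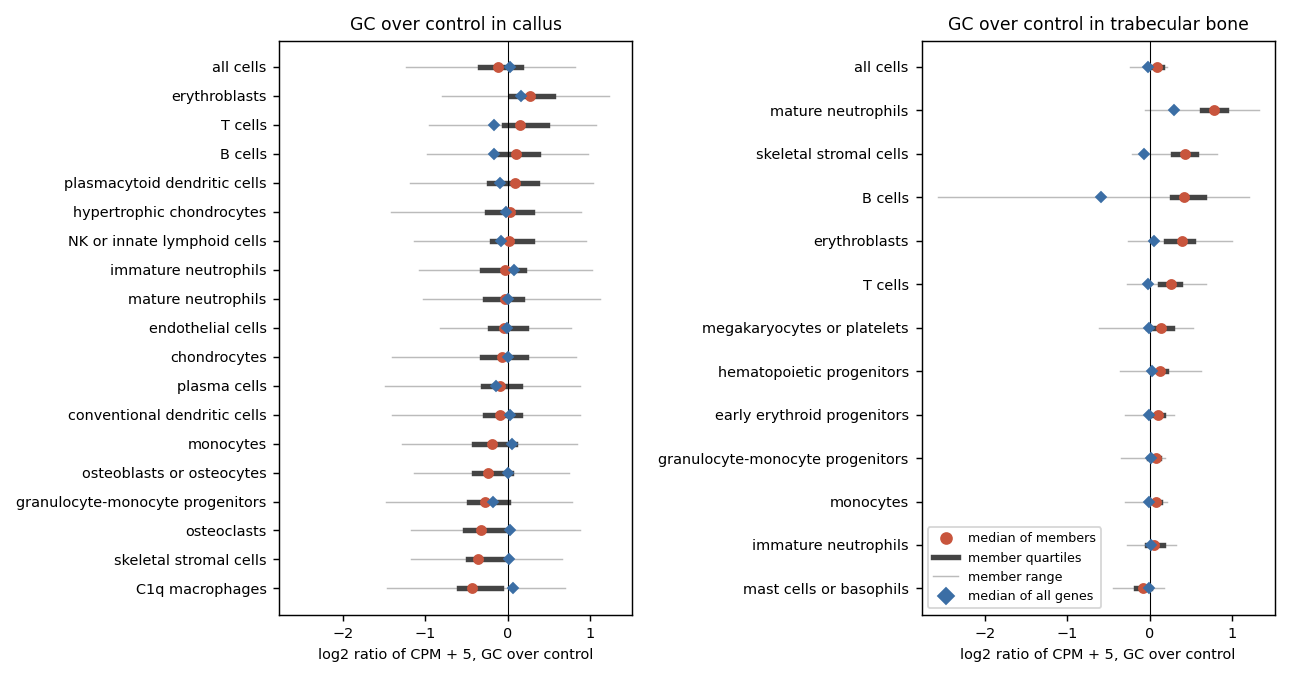
Log2 ratio of GC over control (CPM plus 5, horizontal axis) in each class, with a circle for the median of the members, a thick line for their quartiles, a thin line for their range and a diamond for the median of all genes tested. Callus medians run from -0.43 (C1q macrophages) to 0.27 (erythroblasts), and trabecular medians from -0.08 (mast cells or basophils) to 0.78 (mature neutrophils).

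In trabecular bone 11 of 12 class medians were above 0, mast cells or basophils (-0.08) being the exception, and these comparisons also share 1 pair of libraries. Most were small, such as granulocyte-monocyte progenitors (0.08), monocytes (0.07) and immature neutrophils (0.06). The clusters of immature neutrophils went both ways. The largest went from 2.59% (515 control cells) to 3.48% (476 GC cells). Another went from 2.08% (44 cells) to 3.23% (392 cells), whereas some smaller ones were lower in GC, such as 13.1% (30 cells) and 12.3% (40 cells). The largest class median was that of mature neutrophils, whose share was 2.37% in control (1588 cells) and 3.92% in GC (1906 cells). A cell held 119 member UMIs on average in control and 158 in GC, while median UMIs per cell were 4822 and 3554. The median member ratio was 0.78 beside 0.29 over all genes tested in these cells, and 65 of 78 members were past 1.5-fold higher (18.7% of 7018 genes) and 0 lower (2.62%). Rpl32 (108 CPM in control, 278 in GC) and Rplp2 (199 and 469) were among the highest ratios. The lowest belonged to Rpl3l (16.1 and 15.2), Rpl7a (130 and 155) and Rps9 (1898 and 2579), the member already most abundant in these cells.

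The mature neutrophils of the 2 trabecular libraries lay largely in different clusters, and their spread over clusters overlapped by 11.4%. Control cells were mostly in 3 clusters (662, 487 and 393 cells) and GC cells mostly in another 3 (679, 538 and 527 cells). In each of these 6 clusters the GC cells had the higher share, for example 2.24% and 2.94% in the largest control cluster and 2.12% and 3.43% in the largest GC cluster, where control had 35 cells. One of the 6 held a single control cell. In bins of UMIs per cell the GC share was higher in 5 of 5, from 2.65% and 6.25% at the fewest UMIs to 2.03% and 2.79% at the most. The GC library also had the higher share in uncalled barcodes (12.5%, against 10.5% in control), and its part in the difference was not tested.

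Fewer cells stood behind the remaining trabecular classes with large ratios. Stromal cells went from 10.4% (18 cells) to 13.9% (46 cells) with a median of 0.43, 19 members higher (14.3% of 1268 genes) and 0 lower (19%). Rpl6 (1150 and 1998 CPM) was among the highest, and Rps27l (284 and 243), Rpl34 (1556 and 1625) and Rplp2 (1188 and 1241) lowest. B cells went from 24.5% (313 cells) to 34.7% (16 cells) with a median of 0.41, 24 members higher (12.3% of 4847 genes) and 1 lower (50.5%). The median over all genes tested was -0.59. With 16 GC cells, a gene could reach the minimum of 50 UMIs through control alone and have few UMIs in GC. The share of all genes that were lower is therefore no like background for the abundant members. Rps24 (5697 and 13173 CPM), Rps27 (4930 and 9925) and Rpl13 (4950 and 9544) were highest there, and Rps27l (384 and 60.1, the latter from 3 UMIs), Rpl4 (1089 and 742) and Rpl5 (954 and 722) lowest. All 16 GC B cells lay in 1 cluster with 56 control cells, whereas the other control cells lay in 2 clusters with no GC cell (overlap 17.9%). In the shared cluster the member share was 27.4% (control) and 34.7% (GC). Erythroblasts went from 0.88% to 1.15% with a median of 0.39, and when each library was clustered alone the median was -3.60.

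Single members past 1.5-fold were found over all cells in callus and not in trabecular bone. The 13 members lower in GC callus included Rps15, Rpl12, Rpl13a, Rps12, Rps14, Rplp1, Rpl17, Rps25, Rpl5, Rpl23a, Rps6 and Rpl10, and the 6 higher were Rps28, Rps29, Rps27, Rpl35, Rpl38 and Rpl41. Rps15, a small subunit protein of the decoding region, stood at 1637 CPM (control) and 693 CPM (GC) in callus, and at 685 and 746 CPM in trabecular bone. Rpl12, at the base of the stalk, stood at 1829, 782, 928 and 1025 CPM in the same order. Over all cells, for both genes, control callus stood apart and the other 3 libraries lay close together. Within T cells this held for Rps15, at 1479 (control) and 1754 CPM (GC) in trabecular bone. It did not hold for Rpl12, whose trabecular T cell levels (4291 and 4779 CPM) lay closer to control callus than to GC callus. Rps28 stood at 2522, 4454, 2357 and 1987 CPM and Rpl41 at 4616, 7240, 4389 and 4249, so that over all cells GC callus stood apart for these genes. Within T cells the trabecular levels of Rps28 (6108 in control and 6013 CPM in GC) lay between those of control and GC callus.

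The callus contrast of these sets follows from their choice on these libraries and supports nothing by itself. The 13 members lower in GC callus held 17.1% (control) and 9.77% (GC) of member UMIs in callus, and 11.2% and 11.4% in trabecular bone, and the share of each of the 13 was highest in control callus. The 6 higher members held 9.34%, 15.7%, 12.04% and 10.5%, and the shares of 5 of the 6 were highest in GC callus. The exception was Rps29, whose share of member UMIs was 2.92% in GC callus and 2.93% in control trabecular bone. In uncalled barcodes of few UMIs, those used as the empty-droplet profile, the 13 held 17.0% of member UMIs for control callus, and 9.88% (control) and 12.1% (GC) for trabecular bone, and the 6 held 10.1%, 12.3% and 10.2%. In control callus these shares lay close to those of its cells. GC callus listed no uncalled barcodes.

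Most of these members kept 1 sign over callus classes of unlike origin, but they had been chosen on all callus cells pooled. Among those lower in GC, Rps25 ranged over classes from -0.99 to 0.08, Rpl5 from -1.05 to 0.07 and Rpl10 from -0.80 to 0.07. Over the 18 callus classes Rpl12 ranged from -1.46 to -0.73 and Rps15 from -1.49 to -0.46 on the log2 scale, and Rps28 from 0.53 to 1.12 and Rpl41 from 0.51 to 0.92. Over the 12 trabecular classes Rpl12 ranged from -0.17 to 0.68, Rps15 from -0.39 to 0.88, Rps28 from -0.44 to 1.02 and Rpl41 from -0.26 to 0.66. The standard deviation of the ratios over members in a class was 0.38 to 0.49 in callus, with a median of 0.43, and 0.11 to 0.33 in trabecular bone, with a median of 0.18. In T cells it was 0.42 between the callus libraries and 0.20 between the trabecular ones, and 0.36 between the control libraries of callus and trabecular bone. In monocytes these values were 0.43, 0.11 and 0.40.

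**Figure D4:**
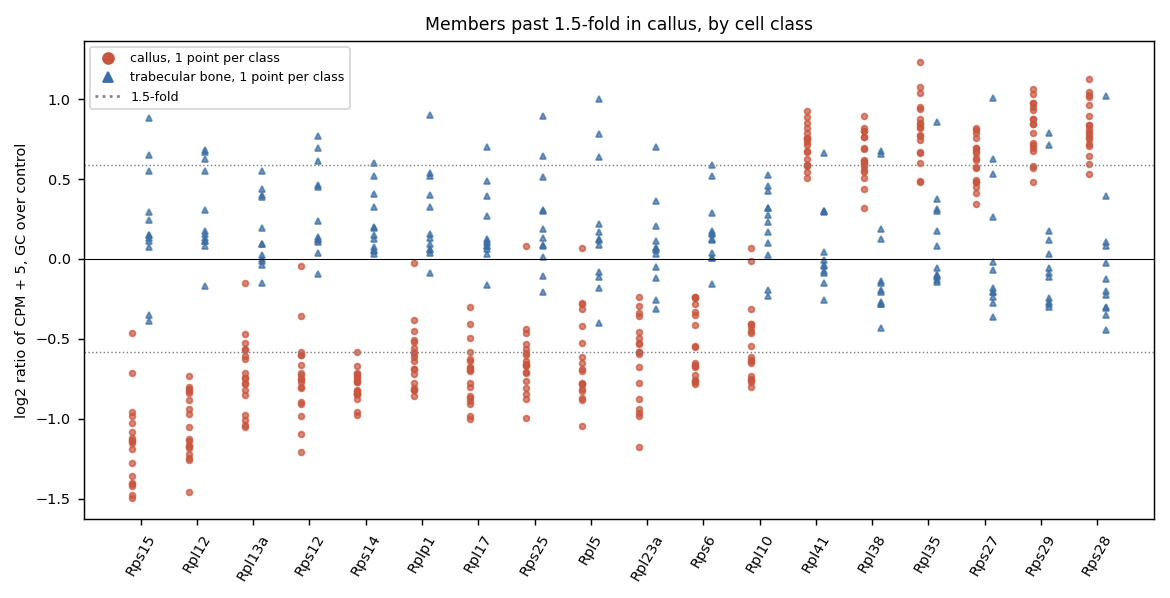
Log2 ratio of GC over control (CPM plus 5, vertical axis) of members past 1.5-fold over all callus cells (genes not reported here are left out), with 1 point for each class of callus (circles) and of trabecular bone (triangles) and dotted lines at 1.5-fold. Callus points of Rps15 lie between -1.49 and -0.46 and those of Rps28 between 0.53 and 1.12, while trabecular points of Rps28 lie between -0.44 and 1.02.

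Length of the coding sequence, which the choice of members did not use, followed the ratios over all cells in opposite directions in the 2 tissues. Over all cells the Spearman correlation of coding length and ratio across the 79 members was -0.42 in callus and 0.54 in trabecular bone, given as a description of genes that share the same libraries. Across classes it ran from -0.51 to -0.38 in callus and from -0.09 to 0.64 in trabecular bone. The lowest trabecular values were those of B cells (-0.087), mature neutrophils (0.009) and erythroblasts (0.191), and the other classes there had at least 0.382. The 6 members higher in GC callus had 25 to 123 codons (median 69.5), the 13 lower had 114 to 297 (median 156), and the remaining 60 had 51 to 419 (median 156.5). Rps28 (69 codons) and Rpl38 (70 codons) were among the 6 higher in GC callus and had, with Rpl36 (-0.16), the lowest ratios over all trabecular cells (-0.25 and -0.16). Rplp0 (0.21) and Rpl15 (0.19) were among the highest ratios over all trabecular cells. With the length of the whole transcript the Spearman correlation over all cells was -0.22 in callus and 0.49 in trabecular bone. With the percent of G and C bases in the transcript it was -0.027 and 0.025. Whether length or the handling of the libraries had a part in the ratios was not tested.

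**Figure D5:**
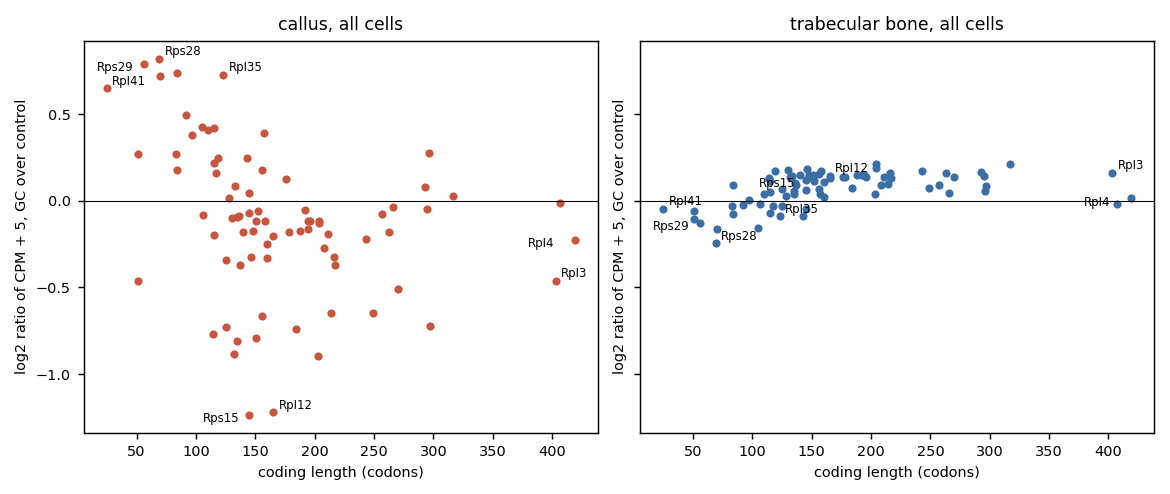
Log2 ratio of GC over control for each ribosomal protein gene (vertical axis) against the length of its coding sequence in codons (horizontal axis), over all cells of callus and of trabecular bone. Spearman correlation is -0.42 in callus and 0.54 in trabecular bone.

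By role, the stalk proteins (Rplp0, Rplp1, Rplp2 and Rpl12), which recruit the translation factors, summed to 11570 CPM in control and 8191 in GC callus, with a median ratio of -0.48. Rplp1 stood at 5202 and 3050 CPM, Rplp2 at 1798 and 1569 and Rplp0 at 2741 and 2789, so that the acidic protein P1 and the base protein Rpl12 carried the difference. In trabecular bone the stalk summed to 6760 and 7466 CPM with a median of 0.14. The 5S RNP pair had 993 and 601 CPM (Rpl5) and 2060 and 1814 CPM (Rpl11) in callus, and 448 and 474 (Rpl5) and 1518 and 1671 (Rpl11) in trabecular bone. The 8 members of the exit tunnel had medians of -0.10 in callus, with Rpl17 (-0.74) and Rpl35 (0.73) at the ends, and of 0.00 in trabecular bone. The 18 Diamond-Blackfan anemia genes had medians of -0.08 and 0.06, with 4 past 1.5-fold higher (1.64% of all genes) and 2 lower (1.56%) in callus and 0 in either direction in trabecular bone (1.49% and 1.83%). Rps19, the gene most often mutated in that disease, stood at 1909, 1969, 1820 and 1901 CPM over the 4 libraries. Rps27a stood at 2721, 3072, 2882 and 3209. Small and large subunit genes had medians of -0.12 and -0.12 in callus and 0.13 and 0.07 in trabecular bone.

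Other genes of ribosome production were set beside the members from fixed lists. Of 15 other TOP mRNAs, 2 had ratios above and 13 below 0 in callus (median -0.11), from Tpt1 (7892 CPM in control, 4866 in GC) to Pabpc1 (336 and 502). In trabecular bone 12 were above and 3 below (median 0.08), from Pabpc1 (488 and 399) to Eef1b2 (629 and 763). Of 39 ribosome biogenesis genes, which process rRNA and assemble subunits, 26 were above and 13 below 0 in callus (median 0.10), from Nop16 (23.2 and 17.7 CPM) to Ddx21 (67.9 and 125), and 27 above and 12 below in trabecular bone (median 0.07), from Rrp12 (8.45 and 6.33) to Nhp2 (82.8 and 98.98). The 12 growth regulators tested had medians of 0.24 in callus, from Ddit4, an mTORC1 inhibitor (48.6 and 24.8), to Myc (64.1 and 108), and of -0.05 in trabecular bone, from Tsc1 (17.9 and 12.9) to Rptor (8.01 and 12.7). The 78 mitochondrial ribosomal protein genes had medians of -0.09 in callus, from Mrps34 (34.5 and 23.3) to Mrpl1 (8.92 and 15.1), and 0.05 in trabecular bone, from Mrps36 (46.5 and 39.7) to Mrpl12 (60.2 and 73.9). Of the 8 ribosomal protein genes outside the rule, Rps27rt had the highest ratio in callus (22.6 and 44.8 CPM). Rpl22l1 (446 and 434) and Rpl36al (555 and 612) were the ends of that list in trabecular bone.

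In trabecular mature neutrophils the median of all 7018 genes tested was itself 0.29, with 21.2% below 0 and 18.7% past 1.5-fold higher. Beside these, of 15 other TOP mRNAs 14 had ratios above 0 and 11 were past 1.5-fold higher, with a median of 0.71. Mitochondrial ribosomal protein genes had a median of 0.65 (54 of 57 tested above 0, 30 past 1.5-fold) and biogenesis genes one of 0.44 (18 of 18 above 0, 3 past 1.5-fold, a share near that of all genes). In callus stromal cells all 15 other TOP mRNAs were below 0, with a median of -0.47, while biogenesis genes had a median of -0.03 and mitochondrial ribosomal protein genes 0.03. In callus T cells, whose member share was higher in GC, the other TOP mRNAs had a median of -0.05 and mitochondrial ribosomal protein genes one of -0.37. The median over all genes tested was 0.02 in callus stromal cells and -0.17 in callus T cells.

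Across classes and libraries, the member share followed other genes of translation. Over the 24 class profiles of trabecular bone, Spearman correlation with the share was 0.92 for the other TOP mRNAs, 0.83 for biogenesis genes and 0.58 for mitochondrial ribosomal protein genes, and over the 36 callus profiles it was 0.68, 0.56 and 0.30. With median UMIs per cell it was 0.33 and 0.07, and with the mitochondrial percent 0.74 and 0.66. Profiles of 1 library share their preparation, and these are descriptions. The genes outside the rule whose CPM was most like the summed members were Rps3a1 (0.91), Snrpg (0.88), Snhg8 (0.82), Rack1 (0.82) and Tpr (0.81) among 1354 genes in callus, and Rps3a1 (0.98), Eef1b2 (0.91), Eif3e (0.90), Rpl22l1 (0.89) and Rack1 (0.88) among 1061 genes in trabecular bone. The median over the members themselves was 0.88 and 0.94.

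Between tissues, 8 classes could be compared. Over all control cells the share was 1.32-fold higher in callus than in trabecular bone, and 20 members were past 1.5-fold higher (28.3% of 14643 genes) and 1 lower (16.6%). Over all GC cells the fold was 1.23, with 12 members higher (31.8% of 14305 genes) and 1 lower (15.7%). In both conditions the share of the 79 members past 1.5-fold higher lay under that of all genes. The median member ratio of callus over trabecular bone was 0.357 in control, beside 0.163 over all genes, and 0.135 in GC, beside 0.237. Within classes the order was mixed. In control, callus had the higher share in 3 of 8 classes: erythroblasts (8.30% and 0.88%), mature neutrophils (4.07% and 2.37%) and stromal cells (16.3% and 10.4%). In GC it was higher in erythroblasts (10.7% and 1.15%) and mature neutrophils (4.38% and 3.92%), while stromal cells had 13.9% in each. Monocytes were lower in callus in both conditions (18.1% and 21.3% in control, 17.3% and 21.8% in GC), as were T cells (29.2% and 32.0%, 35.0% and 37.4%). The mature neutrophils of callus had fewer UMIs per cell (medians 1270.5 and 1133 in control and GC, against 4822 and 3554 in trabecular bone), and their member UMIs per cell were 53.9 and 50.6 on average against 119 and 158. Erythroblasts of callus held 37.4% (control) and 30.02% (GC) hemoglobin UMIs, against 81.3% and 79.7% in trabecular bone.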

How the data were processed

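The authors deposited, for each of the 4 libraries, raw counts of UMIs per gene and barcode, without normalization. Their processing notes name Cell Ranger 5.0.1, Seurat 3.2.0 and the build mm10. The matrix headers name an earlier version of Cell Ranger, so the version that made the counts is not settled. All matrices but that of GC callus listed every possible barcode. In these, barcodes above 10% of the 99th percentile of the 3000 largest, or with at least 500 UMIs and a profile unlike empty droplets (10000 simulations, adjusted p under 0.01), were called cells. The GC callus matrix was taken as called. Cells with under 200 genes or over 10% mitochondrial UMIs were removed, and so were the highest doublet scores against simulated pairs, at 0.8% per 1000 cells (405 in control callus, 428 in GC callus, 125 in control and 183 in GC trabecular bone).

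Libraries of a tissue were clustered together (2000 variable genes, 30 components, 15 neighbors, Leiden resolution 1; clusters of at least 60 cells with markers of more than 1 class again on 15 components at 0.5), leaving out the members, the related lists and mitochondrial genes. Clusters were named from 179 markers of 26 classes (at least 3 markers, 2-fold, in 10% of cells), by a rule adjusted after the clusters had been seen. It left unnamed 174 control and 1428 GC cells of callus and 12 and 31 of trabecular bone. A class was compared when it had at least 15 cells in each library and no cluster with more markers of another class among its 10 leading genes.

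Sums of UMIs gave CPM. Shares have Clopper-Pearson and ratios exact Poisson intervals at 95%, for counting error only, and molecules of 1 library are no replicates. Ratios had 5 CPM added to each level, with a minimum of 50 UMIs summed over the pair of libraries. The measures were tested on simulated data. Depth ranged from medians of 3298 to 6302 UMIs per cell. Members and gene lists were chosen with earlier results of these data known. Named genes are the 5 members with most and the 5 with fewest UMIs, the 3 highest and 3 lowest ratios per tissue and described class, the 5 widest relative spreads, all paralogs, the stalk and 5S RNP lists, the ends of each other list and the 5 most alike genes outside the rule. Named outside the rule, after their values were seen, were the members past 1.5-fold in callus, Rps19, Rps27a, Rpl3 and Rpl31. Of the alternative settings 14 were planned and 2 were added after the data were seen (without the unnamed callus cluster, and at least 2000 UMIs per cell). The tools were leidenalg 0.10.2 and igraph 0.11.9 for clusters, scikit-learn 1.9.0 for components and neighbors, scipy 1.17.1 for intervals, and matplotlib 3.10.9, pandas 2.3.3 and numpy 2.4.6, under Python 3.11.15. Some genes are not reported here by name, although sums and counts include them.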

Additional observations from a re-analysis of the deposited data

Results flagged for a closer look

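The median log2 ratio of GC over control over the ribosomal protein genes had opposite signs in callus and trabecular bone over all cells and in 5 of the 8 shared classes, and the differences between the tissues were not tested. It was -0.115 over all callus cells and 0.093 over all trabecular cells. In granulocyte-monocyte progenitors it was -0.272 and 0.079, in immature neutrophils -0.027 and 0.056, in mature neutrophils -0.037 and 0.776, in monocytes -0.194 and 0.074, and in skeletal stromal cells -0.354 and 0.43. In the other shared classes both medians were above 0: T cells (0.153 and 0.252), B cells (0.101 and 0.411) and erythroblasts (0.269 and 0.388). The immature and mature neutrophil medians of callus lie close to 0 and turned sign under other settings. By the summed share these 2 classes did not go opposite ways. In callus it was 4.18% (control) and 4.33% (GC) in immature and 4.07% and 4.38% in mature neutrophils. In trabecular bone it was also higher in GC, at 4.64% and 4.88% and at 2.37% and 3.92%. Those of callus granulocyte-monocyte progenitors and of erythroblasts in both tissues also turned (erythroblasts -0.926 to 0.601 in callus, -3.599 to 0.627 in trabecular bone). Callus erythroblast clusters went opposite ways, from 5.62% (control) to 2.87% (GC) and from 11.4% to 16.8%.

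Barcodes that were not called cells also held member UMIs. They took 13.49% of the UMIs of those barcodes for control callus, and 10.46% (control) and 12.48% (GC) for trabecular bone, each above the shares of neutrophils in the same library.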

How the results depend on the processing

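No paired analysis was possible because each group holds 1 library and the result comes from no test. Values below are percent of UMIs taken by the members over all cells (control callus, GC callus, control and GC trabecular bone), then the fold between the highest and lowest class and the median log2 ratio, callus first. With the UMI cutoff alone, the shares were 16.69, 16.66, 13.31 and 14.43, the folds 1.828 and 35.98 and the medians -0.088 and 0.139. That setting left 11 callus, 10 trabecular and 2 shared classes, fewer than in the main comparison. The folds are thus over other sets of classes than the main ones. Callus exceeded trabecular bone in 0 of the 2 shared classes left, in control and in GC. A mitochondrial limit of 5% gave shares of 16.55, 16.34, 12.27 and 13 and medians of -0.111 and 0.102. At least 500 genes per cell gave 16.62, 16.41, 12.89 and 14.1, a trabecular fold of 19.23 over the 11 classes left and medians of -0.114 and 0.148. With doublets kept, these were 16.54, 16.44, 12.4 and 13.01, folds of 6.992 and 29.16, medians of -0.101 and 0.088, and 4 shared GC classes higher in callus. Without hemoglobin and mitochondrial UMIs they were 16.92, 16.71, 13.32 and 14.52, 7.952 and 12.01, and -0.113 and 0.141. The mean over cells gave 14.65, 14.16, 8.396 and 8.503, with folds of 8.039 and 33.47. Thinned to 1000 UMIs, cells gave 15.03, 14.81, 8.297 and 8.406, folds of 8.068 and 34.81 and medians of -0.148 and 0.03. There 2 of the 11 trabecular class medians left were below 0, and 1 of the 7 shared GC classes left was higher in callus. Centred on all genes, the medians were -0.14 and 0.118. With the other ribosomal proteins added, the shares were 17.43, 17.22, 13.3 and 14.04, the folds 7.311 and 33.67 and the callus median -0.106. With each library clustered alone, 8 trabecular classes were left, over which the fold was 11.46 and 3 class medians were below 0. Chosen after seeing the data, leaving out the unnamed callus cluster gave 16.62 and 17.12 in callus and a median of -0.035, so that GC callus then had the higher share. At least 2000 UMIs per cell gave 16.86, 16.7, 12.61 and 13.31, a callus fold of 7.705 and a median of -0.106. The causes were not tested.

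Class medians kept their sign under every setting run in callus T cells (0.144 to 0.319), B cells, C1q macrophages (-0.504 to -0.383), stromal cells, osteoclasts and monocytes, and in trabecular mature neutrophils (0.484 to 0.826) and T cells (0.224 to 0.291). They turned in callus endothelial cells, erythroblasts (-0.926 to 0.601), granulocyte-monocyte progenitors (0.22 at Leiden resolution 2), hypertrophic chondrocytes, both neutrophil classes and plasma cells, and in trabecular early erythroid progenitors and erythroblasts (-3.599 with each library clustered alone). One library per group, a number of mice that is not given, clusters that differ between libraries and a callus file made in another way limit every comparison.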

Other observations

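Some classes had too few cells for a comparison. Early erythroid progenitors of callus (11 control and 3 GC cells) gave 29.3% and 35.9% of their UMIs to the ribosomal protein genes, mast cells or basophils (16 and 8 cells) 15.6% and 27.5%, and pericytes or smooth muscle cells (14 and 15 cells) 15.2% and 12.3%. Cycling chondrocytes numbered 74 in control and 3 in GC callus, with shares of 17.8% and 9.91%. In trabecular bone, NK or innate lymphoid cells (8 and 17 cells) had 28.3% and 27.4%, plasmacytoid dendritic cells (32 and 6 cells) 20.6% in each library, and plasma cells (9 and 13 cells) 6.88% and 10.5%, against 20.6% and 20.3% in the plasma cells of callus.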
